A study of Sus scrofa with 11 samples.

Results

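Porcine coronary arteries that were stented and kept in a bioreactor under dynamic flow, labelled Stent/Flow ++ and called stented high-flow here, were compared with native coronary arteries. The libraries were chosen by their labels: 3 stented high-flow and 2 native libraries, which is 5 of the 11 RNA-seq libraries of the study. The others came from vessels that were stented without flow (stented static, Stent/Flow -, 2 libraries), that had flow but no stent (high-flow, Flow ++, 2 libraries) or that had low flow and no stent (low-flow, Flow +, 2 libraries). The stated aim, from the title, was an ex vivo culture model of the vessel for the study of stent therapies. Stented high-flow vessels differ from native ones by the stent, the flow and the culture itself, and these cannot be told apart in this comparison. Replicate 3 of stented high-flow carries a d suffix of 7 in its label and the other 2 carry none, and native replicate 2 shares experiment number 25 with stented high-flow replicate 1. The sources used here give neither the meaning of the suffix nor whether a number marks an animal, and they give no age, sex or strain of the pigs. Nothing in the labels ties each library to its own animal, so the p-values speak for the spread between these libraries alone, and that spread may be technical.

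The coronary artery wall holds an endothelial lining, a media of contractile smooth muscle cells and an adventitia of fibroblasts, with perivascular fat and nerve outside it. Smooth muscle cells of an injured or cultured vessel are known to lower their contractile genes and to raise matrix, protease and proliferation genes, a change called phenotypic switching. Stenting strips or stretches the endothelium and the media, and the growth of matrix-rich neointima that can follow is the lesion known as in-stent restenosis.

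In units of 1e6, the gene counts of the libraries summed to 17.5 and 20.2 in native and to 13.5, 19.7 and 22.2 in stented high-flow. Mitochondrially encoded genes took 10.3% and 10.7% of the counts in native and 5.77%, 5.19% and 3.31% in stented high-flow. Levels are given as counts per 1e6 counts (CPM), and log2 CPM of all genes correlated at 0.971 between the native libraries, at 0.932 to 0.964 among the stented high-flow libraries and at 0.825 to 0.861 between the groups. Smooth muscle and endothelial markers were detected in all 5 libraries, under the label of coronary artery. The first principal component separated the groups with 72.1% of the variance, and the next, with 15.5%, spread the stented high-flow libraries with replicate 1 at one end and replicate 3 at the other.

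A large share of the transcriptome differed. Of 15348 genes tested with edgeR's quasi-likelihood test, 3737 (24.3%) passed a Benjamini-Hochberg adjusted p of 0.05, 1599 (10.4%) higher and 2138 (13.9%) lower in stented high-flow. "Called" below means past that threshold. Log2 fold changes are stented high-flow over native unless another comparison is named. Each ± value is a standard error (SE) worked back from the F statistic of the test. The falls were the larger, with a median log2 fold change of -2.52 among genes called lower and 1.64 among genes called higher, and 1360 lower genes against 591 higher ones changed by more than 4-fold. All 3 stented high-flow libraries lay above both native ones in 3899 genes (25.4%) and below them in 4231 (27.6%), called or not. Counts of calls in the gene lists below stand beside the 10.4% higher and 13.9% lower over all genes tested. The counts rest on few libraries: without native replicate 1, 426 genes were called higher and 1116 lower, without native replicate 2, 483 and 1208, and without stented high-flow replicate 2, 983 and 1481. Of the 3737 calls, 1197 (32.0%) held whichever single library was left out, 316 of the 1599 higher and 881 of the 2138 lower. A gene printed below with an adjusted p under 0.05 against native is among those 1197 unless its loss without a library is given with it.

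**Figure D1:**
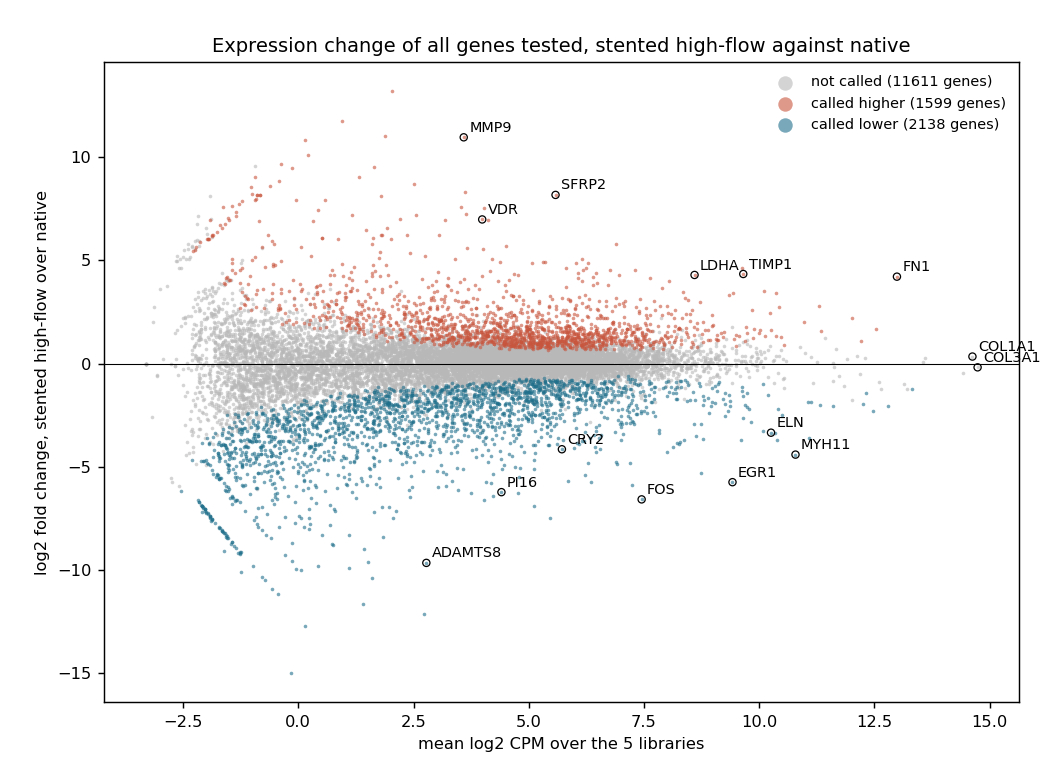
Each point is 1 of the 15348 genes tested, with its mean log2 CPM over the 5 libraries on the horizontal axis and its log2 fold change, stented high-flow over native, on the vertical axis. The 1599 genes called higher and 2138 called lower are coloured, and circled genes are named in the text; the collagens COL1A1 and COL3A1 lie near 0, at 0.34 and -0.18, while FN1 lies at 4.21.

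The contractile apparatus of smooth muscle was lower. Of 20 contractile genes tested, 13 were called lower and none higher, with a median log2 fold change of -2.30 against 0.06 over all genes tested. MYH11, the smooth muscle myosin heavy chain, stood at 11140 and 12610 CPM in the native libraries and at 934, 468 and 280 CPM in stented high-flow replicates 1 to 3. The nearest libraries of the 2 groups were 11.9-fold apart, and the log2 fold change was -4.40 ± 1.04 (SE, adjusted p = 0.0115). CNN1, the actin-binding calponin of smooth muscle, went from 3067 and 4319 CPM to 362, 205 and 288 CPM (log2 fold change -3.70 ± 0.82, adjusted p = 0.00891). LMOD1, which nucleates actin filaments, went from 1398 and 1808 CPM to 186, 83.5 and 73.5 CPM (-3.81 ± 0.71, adjusted p = 0.00362). In each of these 3 genes replicate 1 was the highest of the stented high-flow group, and no library crossed into the native range.

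Regulators of contraction were among the largest falls of the list. PPP1R12B, a targeting subunit of myosin phosphatase, was at 1046 and 854 CPM in native and at 45.6, 31.4 and 20.5 CPM in stented high-flow (-4.87 ± 0.55, adjusted p = 0.000259). PPP1R14A, an inhibitor of the same phosphatase, fell from 592 and 677 CPM to 77.6, 18.7 and 11.6 CPM (-4.14 ± 0.99, adjusted p = 0.0123). Smoothelin, SMTN, a marker of fully contractile cells, was lower by a smaller amount, -2.05 ± 0.35 (adjusted p = 0.00217). The best known marker, ACTA2, was at 7661 and 9667 CPM in native and at 3022, 2161 and 2415 CPM in stented high-flow. Its libraries did not overlap, but its log2 fold change of -1.77 ± 0.76 did not pass the test (adjusted p = 0.114). TAGLN (-1.41 ± 0.58, adjusted p = 0.101) and MYOCD, the coactivator that drives contractile genes (-1.39 ± 0.61, adjusted p = 0.121), did not pass either. MYOCD was at 43.4 and 45.9 CPM in native and at 34.1, 8.75 and 8.34 CPM in stented high-flow, so that replicate 1 stood close to native and the other 2 far below it. Without stented high-flow replicate 1, TAGLN (-2.06, adjusted p = 0.0239) and MYOCD (-2.38, adjusted p = 0.00661) were called lower. With native replicate 1 or 2 left out, 9 and 6 of the contractile genes were called lower. In bulk tissue, fewer cells of a type and less RNA per cell cannot be told apart, here and in every group below.

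Some genes that set the tone of the vessel were lower too. Of 27 ion channel and calcium-handling genes, 12 were called lower and 4 higher (median -0.88), and of 32 vasoactive receptors and cyclic nucleotide genes, 5 were called lower and 3 higher (median -0.48). The shares of this second list, 15.6% lower and 9.38% higher, were near the 13.9% and 10.4% over all genes tested, and none of its 3 rises was called without native replicate 1 or without native replicate 2. Without native replicate 1, 3 channel genes were called lower and 2 higher, and without native replicate 2, 5 and 1. Some channel genes called lower are also listed as markers of Schwann cells or cardiomyocytes, and the part of those cells was not tested. RAMP1, the partner of the receptor for the vasodilator CGRP, was at 256 and 219 CPM in native and at 9.11, 3.76 and 8.38 CPM in stented high-flow (-5.07 ± 0.53, adjusted p = 0.000167). P2RX1, the ATP-gated channel through which nerves contract arteries, was at 18.9 and 7.13 CPM against 0.646, 0.561 and 0.422 CPM (-4.58 ± 0.63, adjusted p = 0.000736). The nearest libraries of the 2 groups were 24-fold apart for RAMP1 and 11-fold for P2RX1. The adenosine receptor ADORA2A (-2.91 ± 0.47, adjusted p = 0.00161), the prostaglandin E2 receptor PTGER4 (-2.43 ± 0.40, adjusted p = 0.00181) and KCNK3, a background potassium channel (-2.99 ± 0.53, adjusted p = 0.00285), were also lower. Among the rises, KCNJ2, an inward rectifier potassium channel, went from 3.19 and 2.93 CPM to 11.5, 16.9 and 14.2 CPM (2.21 ± 0.39, adjusted p = 0.00277). HTR2A, the serotonin receptor that contracts coronary arteries, went from 4.36 and 3.39 CPM to 56.8, 21.8 and 26.1 CPM (3.17 ± 0.71, adjusted p = 0.00896); its adjusted p was 0.0661 and 0.0791 without native replicate 1 and 2.

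The Notch pathway, through which neighbouring cells signal and which helps keep arterial smooth muscle differentiated, had 8 of 17 genes called lower and none higher (median -1.21). NOTCH3, the receptor of arterial smooth muscle, was at 454 and 456 CPM in native and at 78.7, 49.4 and 61.1 CPM in stented high-flow (-2.85 ± 0.31, adjusted p = 0.000234). NOTCH1 was lower by a smaller amount (-1.87 ± 0.33, adjusted p = 0.00267). The target genes moved the same way: HES4 was at 72.9 and 68.6 CPM in native and at 11.9, 8.58 and 5.06 CPM in stented high-flow (-3.06 ± 0.35, adjusted p = 0.000278). The transcription factors HES1 (-2.81 ± 0.45, adjusted p = 0.00156), HEY1 (-3.04 ± 0.46, adjusted p = 0.00125) and HEYL (-3.85 ± 0.75, adjusted p = 0.00474) were lower as well. HEYL was uneven within the group, at 24.5 CPM in replicate 1 and 3.59 and 3.94 CPM in the others. When native replicate 1 or 2 was left out, 6 Notch genes were called lower in each case.

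Fibronectin rose and the main fibrillar collagens did not pass the test. FN1, the fibronectin that provisional matrix is built on, was at 1495 and 1449 CPM in native and at 21060, 42450 and 18240 CPM in stented high-flow. Its share of all gene counts was 0.131% and 0.124% in native and 2.17%, 3.83% and 1.75% in stented high-flow, and the log2 fold change was 4.21 ± 0.70 (adjusted p = 0.00196). The fibrillar collagens did not follow. COL1A1 was at 20530 and 26010 CPM in native and at 15020, 28860 and 44630 CPM in stented high-flow (0.34 ± 0.53, adjusted p = 0.677), and COL3A1 at 27490 and 32360 against 23850, 34710 and 20730 CPM (-0.18 ± 0.63, adjusted p = 0.864). For both genes the groups overlapped, with stented high-flow replicate 1 below both native libraries for COL1A1 and replicate 3 above them. COL1A2 (0.26 ± 0.59, adjusted p = 0.783) and the collagen-binding SPARC (0.09 ± 0.38, adjusted p = 0.886) overlapped too.

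Of 20 collagen chain genes tested, 5 were called higher and 6 lower, with a median of 0.30. COL6A3, a chain of the microfibrillar collagen VI, rose from 1878 and 1526 CPM to 4561, 8147 and 11000 CPM (2.21 ± 0.45, adjusted p = 0.00559); without native replicate 2 its adjusted p was 0.0642. COL18A1, whose product lies in basement membranes, fell from 3330 and 3490 CPM to 889, 667 and 657 CPM (-2.21 ± 0.30, adjusted p = 0.000732). COL27A1 (-3.06 ± 0.33, adjusted p = 0.000195) and COL21A1 (-5.82 ± 0.82, adjusted p = 0.000818), chains of less abundant collagens, fell further. Leaving out native replicate 1 gave 1 chain called higher and 3 lower, and leaving out native replicate 2 gave none higher and 3 lower.

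The enzymes that modify, fold and crosslink collagen rose more widely than the chains, with 15 of 23 called higher and 2 lower (median 1.77). LOXL2, a lysyl oxidase that crosslinks collagen, was at 58.1 and 51.0 CPM in native and at 381, 581 and 1109 CPM in stented high-flow (3.66 ± 0.51, adjusted p = 0.000804), with replicate 3 the highest. P4HA3, a prolyl hydroxylase subunit, went from 10.7 and 12.1 CPM to 82.9, 152 and 98.6 CPM (3.29 ± 0.39, adjusted p = 0.000321). The lysyl hydroxylase PLOD1 (2.34 ± 0.41, adjusted p = 0.00275), the collagen chaperone FKBP10 (2.40 ± 0.36, adjusted p = 0.00114) and LOXL4, another lysyl oxidase (3.59 ± 0.48, adjusted p = 0.000675), rose as well. SERPINH1, the collagen chaperone HSP47, was at 591 and 737 CPM in native and at 999, 1891 and 3293 CPM in stented high-flow (1.63 ± 0.43, adjusted p = 0.0200), and lost its call without either native library (adjusted p = 0.164 and 0.0919). P3H2, a prolyl 3-hydroxylase that acts on basement membrane collagen, went the other way, from 90.0 and 108 CPM to 7.32, 4.60 and 12.7 CPM (-3.59 ± 0.38, adjusted p = 0.000195). After dropping native replicate 1 or 2, 8 genes of the list were called higher in each case.

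Elastic fibre genes were among the largest falls of the matrix. ELN, tropoelastin, was at 4730 and 5307 CPM in native and at 519, 330 and 635 CPM in stented high-flow (-3.34 ± 0.46, adjusted p = 0.000720). LTBP4, which is needed for elastic fibre assembly, went from 1772 and 1422 CPM to 80.1, 104 and 189 CPM (-3.68 ± 0.39, adjusted p = 0.000190). The nearest libraries of the 2 groups were 7.45-fold apart for ELN and 7.53-fold for LTBP4. FBN2, a fibrillin (-3.39 ± 0.64, adjusted p = 0.00398), and LAMA3, a laminin chain (-3.94 ± 0.52, adjusted p = 0.000645), were lower, and NID2, a basement membrane linker, was higher (1.56 ± 0.29, adjusted p = 0.00330). In the whole list of 24 elastic fibre and basement membrane genes 7 were called lower and 4 higher (median -0.16), and 1 was called higher without either native library.

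Of 18 synthetic and matricellular genes, 6 were called higher and 2 lower (median 0.98). SPP1, osteopontin, a secreted phosphoprotein made by synthetic smooth muscle cells and macrophages, was at 11.2 and 12 CPM in native and at 226, 149 and 429 CPM in stented high-flow (4.53 ± 0.60, adjusted p = 0.000636). CCN4, a matricellular protein, rose from 4.10 and 3.91 CPM to 31.2, 61.0 and 99.2 CPM (3.99 ± 0.64, adjusted p = 0.00158). LGALS3, the lectin galectin-3 (4.37 ± 0.46, adjusted p = 0.000169), and S100A4, a calcium-binding protein of synthetic cells (3.80 ± 0.68, adjusted p = 0.00288), rose too. The 2 members called lower were the keratins KRT8 (-5.84 ± 0.83, adjusted p = 0.000866) and KRT18 (-4.73 ± 0.97, adjusted p = 0.00587), intermediate filament proteins also made by epithelia and mesothelium. KRT8 was at 33.3 and 35.1 CPM in native and under 1 CPM in every stented high-flow library.

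Proteoglycan and hyaluronan genes had 7 of 20 called higher and 1 lower (median 0.49). CEMIP, which starts the breakdown of hyaluronan, was at 0.977 and 0.863 CPM in native and at 114, 99.6 and 135 CPM in stented high-flow (6.97 ± 0.55, adjusted p = 6.17e-05). HAS2, the main hyaluronan synthase, rose from 7.55 and 9.15 CPM to 17.1, 43.5 and 42.3 CPM (2.04 ± 0.61, adjusted p = 0.0332), but was not called without any one of native replicate 1 or 2 (adjusted p = 0.196 and 0.136) or stented high-flow replicate 2 or 3 (0.0876 and 0.0660). SDC1, a cell surface heparan sulfate proteoglycan, rose from 19.9 and 23.5 CPM to 93.9, 148 and 161 CPM (2.63 ± 0.34, adjusted p = 0.000546). BGN, the small leucine-rich proteoglycan biglycan, went from 2780 and 3392 CPM to 5862, 10310 and 13080 CPM (1.66 ± 0.39, adjusted p = 0.0114), with an adjusted p of 0.116 and 0.0640 without native replicate 1 and 2. Its groups did not overlap. Without native replicate 1 or 2, 3 and 2 proteoglycan and hyaluronan genes were called higher.

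**Figure D2:**
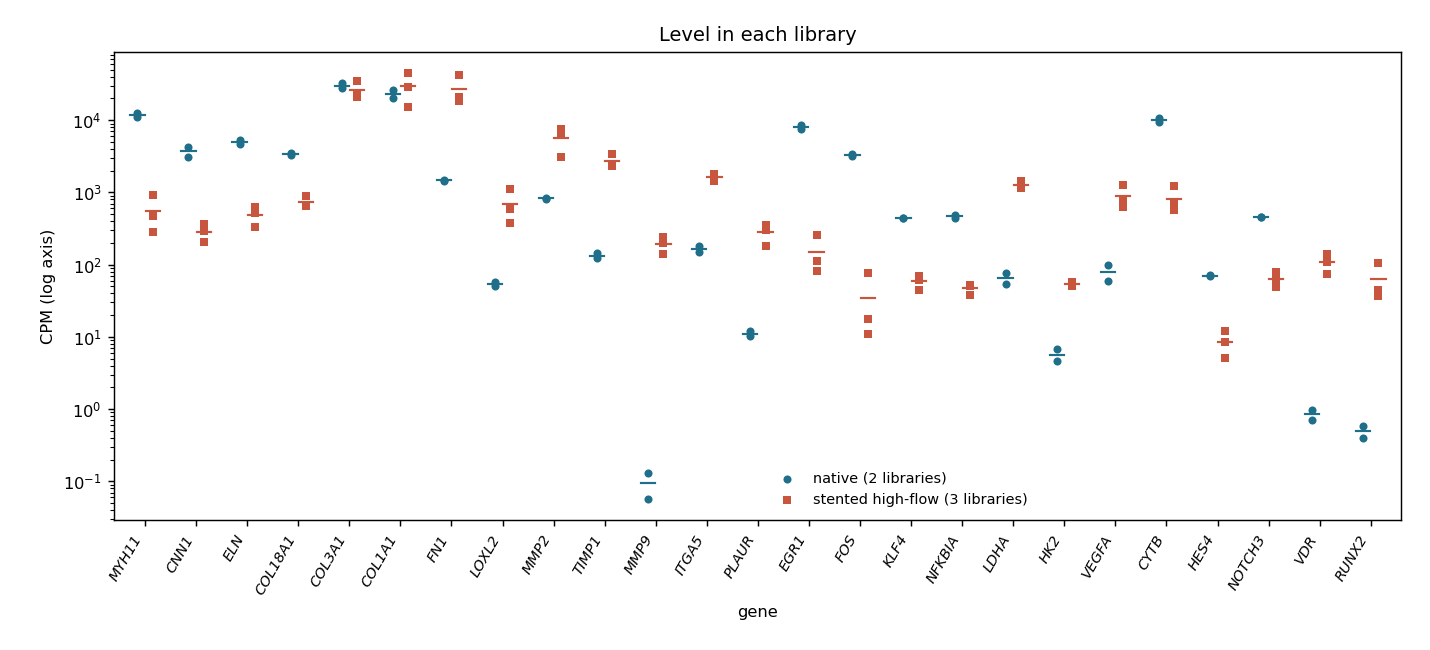
The level of 25 genes in each of the 5 libraries, in CPM on a log axis, with circles for the 2 native and squares for the 3 stented high-flow libraries and a line at each group's mean. COL3A1 and COL1A1 are the genes shown whose groups overlap, and MMP9 is the gene with the widest gap.

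Some proteases of the matrix and their inhibitor TIMP1 rose. Of 17 metalloproteinases and tissue inhibitors (TIMPs), 7 were called higher and 4 lower (median 0.37), but 5 and 2 without native replicate 1 and 4 and 2 without native replicate 2. MMP9, a gelatinase that cuts denatured and basement membrane collagen, was at 0.130 and 0.0575 CPM in native, 3 counts in all, and at 201, 141 and 243 CPM in stented high-flow. The ratio of the summed counts, scaled to depth, was 2160 with a 95% counting interval of 739 to 10500, which covers counting error only, and the adjusted p was 0.000150. MMP2, the other gelatinase, went from 811 and 838 CPM to 3096, 6322 and 7666 CPM (2.79 ± 0.48, adjusted p = 0.00240). MMP14, the membrane protease that activates pro-MMP2, went from 412 and 474 CPM to 1857, 2581 and 2732 CPM (2.43 ± 0.34, adjusted p = 0.000822). TIMP1, an inhibitor of most of these enzymes, was at 122 and 146 CPM in native and at 2288, 2446 and 3402 CPM in stented high-flow (4.34 ± 0.42, adjusted p = 0.000150). TIMP4 fell from 19.5 and 20 CPM to 2.15, 1.29 and 1.5 CPM (-3.58 ± 0.50, adjusted p = 0.000758), and MMP28, an epilysin, from 154 and 164 CPM to 8.39, 5.83 and 7.31 CPM (-4.47 ± 0.41, adjusted p = 0.000115). MMP1, an interstitial collagenase with 2 counts in native, was uneven in stented high-flow, at 0.861 CPM in replicate 1 and 8.70 and 14.9 CPM in the others. Its ratio was 150 (41.2 to 1240), and its call (adjusted p = 0.0226) was lost without native replicate 1 or 2 (adjusted p = 0.107 and 0.148).

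The ADAMTS family of secreted proteases went both ways. Of 16 tested, 4 were called higher and 5 lower (median 0.25). ADAMTS8 was at 388 and 347 CPM in native and at 0.646, 0.112 and 0.609 CPM in stented high-flow (-9.65 ± 0.76, adjusted p = 6.17e-05). ADAMTS15, which cleaves versican and aggrecan, was at 726 and 539 CPM against 7.96, 3.70 and 4.17 CPM (-6.91 ± 0.67, adjusted p = 0.000148). The highest stented high-flow library was 537-fold below the lowest native one for ADAMTS8 and 67.7-fold for ADAMTS15. ADAMTS1, also a versican-cleaving enzyme, fell less, from 1192 and 1003 CPM to 224, 363 and 323 CPM (-1.86 ± 0.38, adjusted p = 0.00555). ADAMTS7, which cleaves cartilage oligomeric matrix protein and is known from coronary artery disease genetics, rose from 21.6 and 12.9 CPM to 135, 136 and 147 CPM (3.01 ± 0.47, adjusted p = 0.00137), with nearly equal values in the 3 libraries. Leaving out native replicate 1 or 2 gave 1 called higher in each case and 4 and 5 called lower.

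The urokinase system and a fibronectin receptor chain rose. Of 15 plasminogen and coagulation genes, 7 were called higher and 1 lower (median 0.75). PLAUR, the urokinase receptor, went from 12.1 and 10.2 CPM to 182, 304 and 351 CPM (4.65 ± 0.43, adjusted p = 0.000115), and its ligand PLAU, urokinase, from 36.1 and 29.3 CPM to 105, 185 and 296 CPM (2.58 ± 0.44, adjusted p = 0.00222). The thrombin receptor F2R was the member called lower (-1.5 ± 0.27, adjusted p = 0.00321). With native replicate 1 or 2 left out, 3 and 4 of these genes were called higher. Of 16 integrins, 3 were called higher and 6 lower (median 0.02), with 3 lower without native replicate 1 and 4 lower without native replicate 2 or stented high-flow replicate 2. ITGA5, the alpha chain of the fibronectin receptor, was at 148 and 180 CPM in native and at 1648, 1434 and 1806 CPM in stented high-flow (3.31 ± 0.30, adjusted p = 0.000115). ITGA10, a collagen-binding chain, rose too (2.48 ± 0.28, adjusted p = 0.000289). The laminin-binding chains ITGA6 (-2.09 ± 0.42, adjusted p = 0.00563) and ITGB4 (-2.61 ± 0.33, adjusted p = 0.000434) and ITGA9 (-2.05 ± 0.31, adjusted p = 0.00114) fell.

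Endothelial genes were lower but detected. Of 18 endothelial identity genes, 10 were called lower and 1 higher (median -1.44), and their summed level was 1650 and 1930 CPM in native and 947, 1330 and 1350 CPM in stented high-flow. TEK, the angiopoietin receptor TIE2, went from 64.9 and 91.9 CPM to 13.1, 8.70 and 3.75 CPM (-3.21 ± 0.50, adjusted p = 0.00144), and KDR, the main VEGF receptor, from 82.2 and 71.2 CPM to 6.67, 15.5 and 12 CPM (-2.75 ± 0.51, adjusted p = 0.00346). PECAM1, the junction protein CD31, was at 388 and 489 CPM in native and at 104, 181 and 118 CPM in stented high-flow (-1.71 ± 0.38, adjusted p = 0.00904); without native replicate 2 its adjusted p was 0.0760. NOS3, the endothelial nitric oxide synthase, was at 28.8 and 35.8 CPM against 14.7, 17.3 and 15.3 CPM, which did not overlap but did not pass the test (-1.03 ± 0.58, adjusted p = 0.220). The member called higher was ENG, a TGF-beta coreceptor that smooth muscle cells and fibroblasts also make, at 175 and 167 CPM in native and 358, 565 and 764 CPM in stented high-flow (1.72 ± 0.36, adjusted p = 0.00669). Its call was lost without either native library (adjusted p = 0.0654 and 0.0633). The summed level above includes ENG, so it understates how far the sum of the other members fell. Replicate 3, with the highest sum of the stented high-flow libraries, also had the most ENG. When native replicate 1 or 2 was left out, 6 and 4 endothelial genes were called lower.

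The list of genes known to respond to flow in endothelium had 5 of 17 called higher and 3 lower (median -0.28). These shares were 29.4% higher and 17.6% lower, against 10.4% and 13.9% over all genes tested. KLF2 and KLF4, transcription factors that laminar shear stress is known to raise, were both lower. KLF2 was at 338 and 354 CPM in native and at 79.9, 69.6 and 89.6 CPM in stented high-flow (-2.12 ± 0.44, adjusted p = 0.00656). KLF4 was at 449 and 438 CPM against 44.4, 70.5 and 61.3 CPM (-2.92 ± 0.31, adjusted p = 0.000171). CYP1B1, a cytochrome P450 also raised by shear stress, was higher, at 87.8 and 110 CPM in native and 1115, 1199 and 322 CPM in stented high-flow, where replicate 3 was the lowest (3.15 ± 0.60, adjusted p = 0.00410, and 0.0526 without native replicate 1). HMOX1, heme oxygenase 1, rose from 14.9 and 10.8 CPM to 61.6, 152 and 122 CPM (3.12 ± 0.42, adjusted p = 0.000694), and ASS1, an enzyme of arginine synthesis, fell from 11.6 and 38.2 CPM to 1.22, 0.842 and 0.422 CPM (-4.93 ± 0.85, adjusted p = 0.00247). The adhesion molecule VCAM1 was at 103 and 112 CPM against 70.7, 44.0 and 24.2 CPM and did not pass the test (-1.21 ± 0.53, adjusted p = 0.121). Leaving out native replicate 1 or 2 gave 1 and 2 called higher and 3 called lower in each case.

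Immediate early genes, which switch on within minutes of a stimulus, were far higher in native vessels. Of 23, 19 were called lower and 1 higher in stented high-flow (median -2.84), and the summed level was 21800 and 21500 CPM in native against 2530, 1510 and 1920 CPM. EGR1, a zinc finger transcription factor, was at 7611 and 8459 CPM in native and at 259, 81.0 and 112 CPM in stented high-flow (-5.74 ± 0.52, adjusted p = 0.000115). FOS, a subunit of the AP-1 transcription factor, was at 3205 and 3395 CPM against 75.5, 10.9 and 17.9 CPM (-6.57 ± 0.73, adjusted p = 0.000244). In both genes replicate 1 was the highest stented high-flow library and still 29.4-fold below the lower native one for EGR1 and 42.5-fold for FOS. FOSB (-7.46 ± 0.82, adjusted p = 0.000238), JUN (-3.83 ± 0.42, adjusted p = 0.000238) and the nuclear receptor NR4A1 (-5.90 ± 0.46, adjusted p = 6.17e-05) fell too. The exception was FOSL1, a slower AP-1 subunit, at 16.9 and 14.6 CPM in native and 18.7, 42.6 and 47.6 CPM in stented high-flow (1.21 ± 0.39, adjusted p = 0.0458); its call was lost without either native library or without stented high-flow replicate 2 or 3 (adjusted p = 0.109 to 0.215). After dropping native replicate 1 or 2, 15 and 16 were called lower.

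Of 18 circadian clock genes, 9 were called lower and 2 higher (median -1.17), with named repressors and output factors lower and named activators higher. The repressor CRY2 was at 367 and 229 CPM in native and at 18.4, 16.9 and 15.2 CPM in stented high-flow (-4.14 ± 0.29, adjusted p = 3.7e-05). PER2, another repressor (-2.24 ± 0.34, adjusted p = 0.00124), and the clock output factors DBP (-2.54 ± 0.40, adjusted p = 0.00149) and HLF (-4.29 ± 0.45, adjusted p = 0.000167) were lower. The 2 members called higher were the activators BMAL1, at 7.03 and 7.82 CPM in native and 27.9, 28.4 and 26.2 CPM in stented high-flow (1.89 ± 0.25, adjusted p = 0.000653), and its relative NPAS2, at 25.1 and 22.1 against 153, 94.7 and 126 CPM (2.40 ± 0.31, adjusted p = 0.000546). Leaving out native replicate 1 or 2 gave 5 and 6 clock genes called lower and 2 higher in each case.

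Cytokines and chemokines went both ways, with 7 of 22 called higher and 8 lower (median 0.65). The rises included IL11, a cytokine known to act on fibroblasts and smooth muscle, at 0.391 and 0 CPM in native and at 21.6, 31.5 and 182 CPM in stented high-flow (8.67 ± 1.5, adjusted p = 0.00241). Its fitted fold depends on native replicate 1, which held all 6 native counts, and became 13.66 without it (adjusted p = 0.0197). LIF, of the same family, rose from 3.39 and 1.55 CPM to 60.5, 67.8 and 249 CPM (5.67 ± 0.78, adjusted p = 0.000720). In both cytokines stented high-flow replicate 3 stood well above the other 2. CCL2, which attracts monocytes, rose from 106 and 92.1 CPM to 553, 968 and 1017 CPM (3.10 ± 0.43, adjusted p = 0.000745), and CXCL14 from 10.9 and 11.3 CPM to 353, 532 and 967 CPM (5.80 ± 0.65, adjusted p = 0.000269). CXCL8, the neutrophil attractant, rose from under 1 CPM in both native libraries to 7.96, 9.26 and 29.4 CPM (5.10 ± 0.94, adjusted p = 0.00345). IL6 was at 23.3 and 31.1 CPM in native and at 8.04, 13.7 and 48.2 CPM in stented high-flow, which overlapped (-0.22 ± 0.61, adjusted p = 0.828). Without stented high-flow replicate 3 it was called lower (-1.32, adjusted p = 0.0463).

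The falls included chemokines that guide lymphocytes and stem cells. CCL19 was at 63.6 and 66.2 CPM in native and at 1.65, 1.96 and 2.81 CPM in stented high-flow (-4.91 ± 0.53, adjusted p = 0.000195), and CXCL12 at 82.4 and 73.3 CPM against 4.81, 7.52 and 15.3 CPM (-3.07 ± 0.46, adjusted p = 0.00109). NFKBIA, the inhibitor and early target of NF-kappa B, fell from 485 and 446 CPM to 37.6, 52.2 and 50.9 CPM (-3.31 ± 0.46, adjusted p = 0.000788), and TNFAIP3, which also dampens that pathway, fell by 2.00 ± 0.37 on the log2 scale (adjusted p = 0.00369). Interferon response genes had 5 of 23 called lower and none higher (median -0.51). GBP1, a guanylate-binding protein, was at 54.2 and 53.9 CPM against 8.32, 6.45 and 5.39 CPM (-3.01 ± 0.30, adjusted p = 0.000162), and the transcription factor IRF1 at 173 and 98.5 CPM against 11.4, 18.1 and 24.7 CPM (-2.90 ± 0.36, adjusted p = 0.000423). Without native replicate 1 or 2, 3 interferon genes were called lower in each case.

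Cell cycle genes were called higher in 18 of 32 and lower in none (median 1.62). With native replicate 1 or 2 left out, 2 and 1 of the list were called higher, and without stented high-flow replicate 2 or 3, 7 and 8. TYMS, which makes thymidylate for DNA synthesis, was at 2.47 and 2.19 CPM in native and 17.6, 65.8 and 37.5 CPM in stented high-flow (4.11 ± 0.69, adjusted p = 0.00212). PLK1, a mitotic kinase, rose from 3.84 and 2.70 CPM to 10.2, 24.6 and 47.2 CPM (3.06 ± 0.57, adjusted p = 0.00380, and 0.0501 without native replicate 2). TOP2A, a topoisomerase of dividing cells, was at 11.2 and 25.2 CPM against 24.9, 63.7 and 75.5 CPM, with replicate 1 inside the native range (1.59 ± 0.69, adjusted p = 0.118). Inhibitors of the cycle were on the same side. CDKN2B rose from 2.60 and 2.70 CPM to 16.4, 51.6 and 9.65 CPM (3.28 ± 0.67, adjusted p = 0.00559), with an adjusted p of 0.0576 and 0.0505 without native replicate 1 and 2. CDKN2A rose by 3.59 ± 0.91 (adjusted p = 0.0158, and 0.0652 and 0.127 without native replicate 1 and 2). Cyclin D1, CCND1, was at 223 and 280 CPM against 65.8, 175 and 70.6 CPM and did not pass the test (-1.28 ± 0.47, adjusted p = 0.0700). It was called lower without stented high-flow replicate 2 (-1.88, adjusted p = 0.0173).

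Growth factors and their receptors had 7 of 32 called higher and 11 lower (median 0.03). VEGFA, the main angiogenic factor, rose from 100 and 59.3 CPM to 763, 633 and 1271 CPM (3.48 ± 0.46, adjusted p = 0.000587). VEGFC, which acts on lymphatic endothelium, rose from 8.53 and 9.09 CPM to 30.6, 63.3 and 48.5 CPM (2.43 ± 0.35, adjusted p = 0.000861), while the related VEGFD fell from 20.4 and 17.1 CPM to 1.36, 2.19 and 4.40 CPM (-2.80 ± 0.51, adjusted p = 0.00331). AREG, an EGF receptor ligand, had 3 counts in native and stood at 4.88, 18.7 and 20.1 CPM in stented high-flow. Its ratio was 171 with a 95% counting interval of 58.2 to 830 (adjusted p = 0.00115). The fitted log2 fold change was 7.20 and became 11.22 without native replicate 1, which held all the native counts. FGF18 fell (-4.04 ± 0.85, adjusted p = 0.00682). When native replicate 1 or 2 was left out, 3 growth factor genes were called higher and 5 lower in each case.

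Of 27 TGF-beta, BMP and activin genes, 9 were called lower and 3 higher (median 0.03). The lower ones included the pathway's own inhibitors and targets: SMAD6 went from 104 and 94.1 CPM to 18.1, 8.86 and 9.23 CPM (-3.04 ± 0.44, adjusted p = 0.000978) and SMAD7 from 123 and 139 CPM to 26.4, 27.7 and 27.9 CPM (-2.26 ± 0.27, adjusted p = 0.000355). ID2, a BMP target that blocks helix-loop-helix factors, fell from 201 and 320 CPM to 40.6, 28.4 and 33.4 CPM (-2.93 ± 0.27, adjusted p = 0.000115). GDF15, a stress-induced member of the family, rose from 0.521 and 0.288 CPM to 3.37, 19.2 and 28.1 CPM (5.38 ± 1.03, adjusted p = 0.00420, and 0.0514 without native replicate 2). GREM1, a BMP antagonist, was at 3.37, 6.12 and 40.0 CPM in stented high-flow; its log2 fold change of 4.26 ± 1.30 (adjusted p = 0.0355) was 2.46 without replicate 3 (adjusted p = 0.103) and was also not called without native replicate 1 or 2 (adjusted p = 0.214 and 0.0891). After dropping native replicate 1 or 2, 7 and 4 genes of the list were called lower.

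Secreted Wnt antagonists went both ways. In the Wnt list 7 of 27 genes were called higher and 8 lower (median -0.89). SFRP2 was at 0.977 and 2.24 CPM in native and at 381, 547 and 477 CPM in stented high-flow (8.17 ± 0.98, adjusted p = 0.000362). SFRP4, of the same family, was at 85.5 and 113 CPM against 3.16, 2.36 and 3.04 CPM (-5.12 ± 0.38, adjusted p = 4.88e-05). WIF1, which binds Wnt proteins, fell from 939 and 1380 CPM to 67.3, 36.0 and 20.9 CPM (-4.81 ± 0.74, adjusted p = 0.00129), and FRZB from 199 and 267 CPM to 20, 9.87 and 5.11 CPM (-4.33 ± 0.84, adjusted p = 0.00459). The receptor FZD1 rose from 39.5 and 46.1 CPM to 246, 376 and 254 CPM (2.77 ± 0.42, adjusted p = 0.00127). Dropping native replicate 1 or 2 gave 2 and 3 Wnt genes called higher and 6 called lower in each case.

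Of 16 osteochondrogenic genes, 6 were called higher and 5 lower (median 0.77). RUNX2, the transcription factor of bone formation, was at 0.586 and 0.403 CPM in native and at 106, 44.4 and 37.0 CPM in stented high-flow (6.97 ± 0.59, adjusted p = 0.000104). VDR, the vitamin D receptor, was at 0.716 and 0.978 CPM against 74.8, 108 and 142 CPM (6.98 ± 0.44, adjusted p = 2.52e-05), which equals the smallest adjusted p in the comparison. The lowest stented high-flow library was 63.2-fold above the higher native one for RUNX2 and 76.5-fold for VDR. MGP, the matrix Gla protein that inhibits calcification, was at 4272 and 5213 CPM in native and 1533, 1460 and 912 CPM in stented high-flow (-1.87 ± 0.58, adjusted p = 0.0394), and lost its call without any 1 of the 5 libraries (adjusted p = 0.0545 to 0.167). Dropping native replicate 1 or 2 gave 3 called higher in each case and 1 and 2 called lower.

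**Figure D3:**
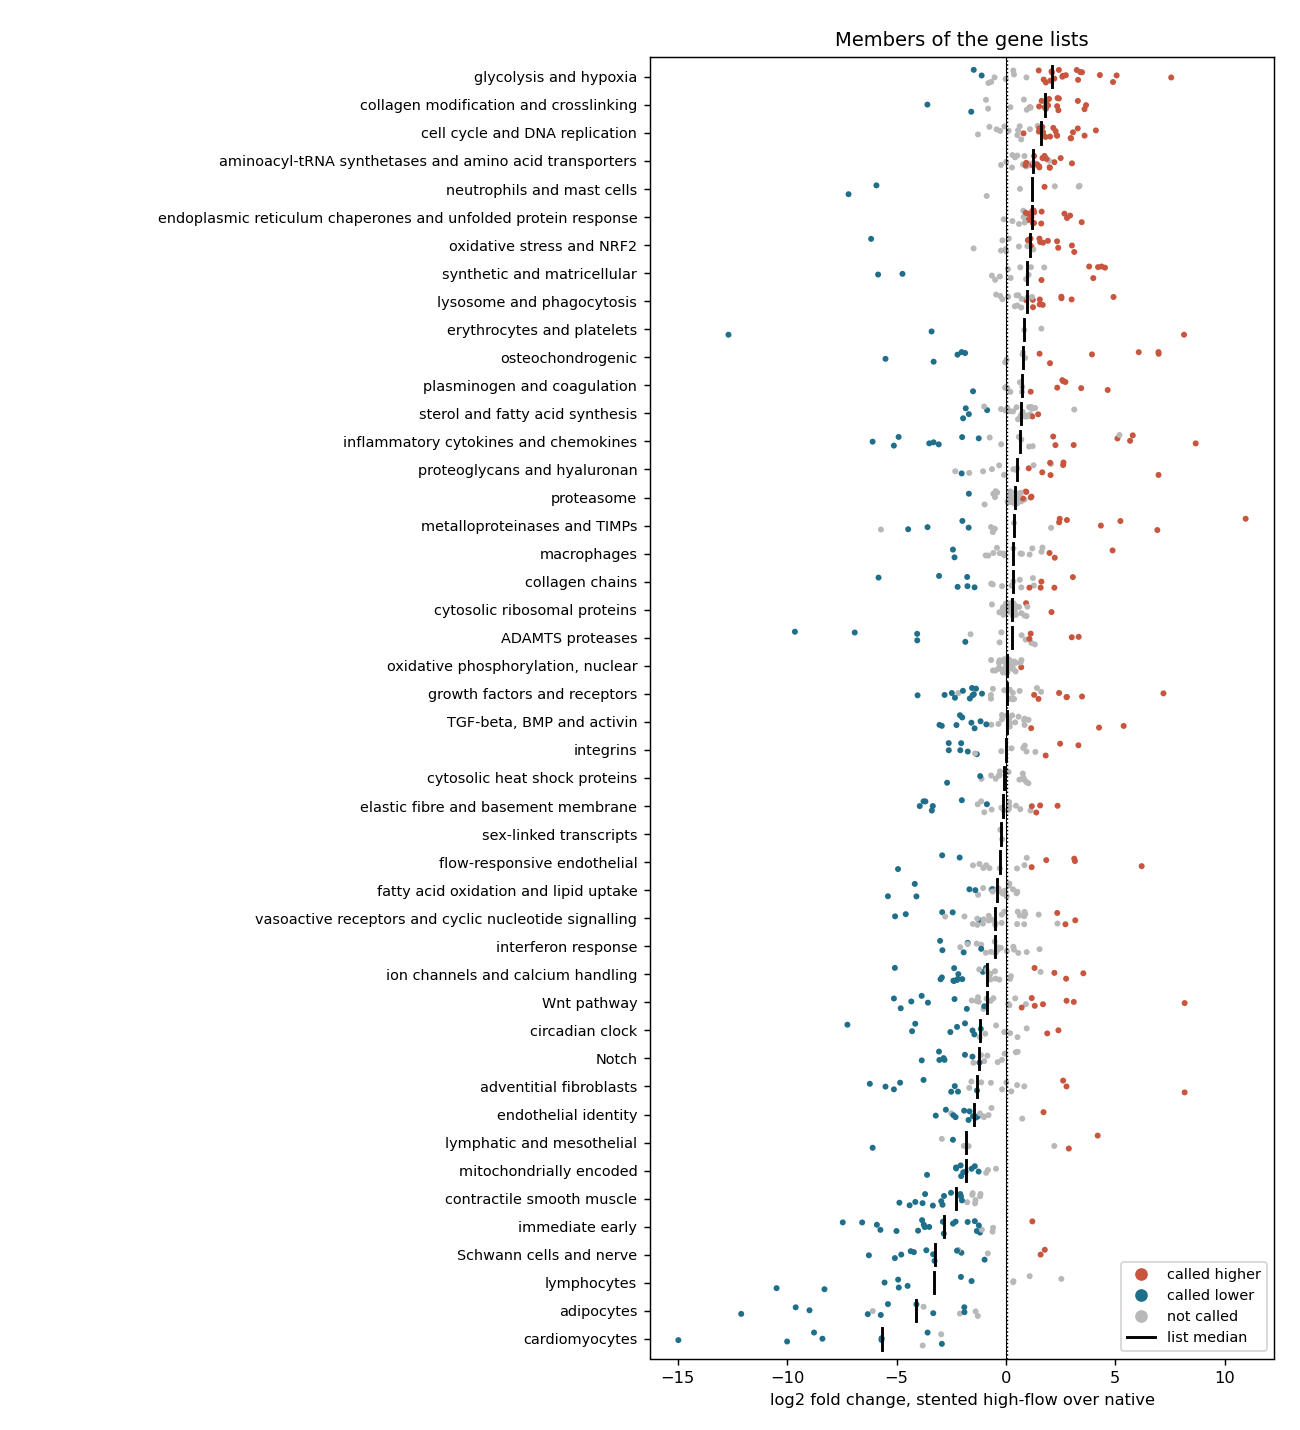
The members of the 46 gene lists by log2 fold change, stented high-flow over native, with 1 point per gene tested, coloured where called, and a bar at each list's median; lists are ordered by that median and the dotted line marks the median of all genes tested, 0.06. Glycolysis and hypoxia genes have the highest median (2.09) and cardiomyocyte markers the lowest (-5.69).

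Glycolysis and hypoxia genes rose in 19 of 28, with 2 called lower and a median of 2.09. LDHA, which makes lactate from pyruvate, was at 54.5 and 76.4 CPM in native and at 1265, 1445 and 1141 CPM in stented high-flow (4.29 ± 0.42, adjusted p = 0.000150). SLC16A3, the transporter that exports lactate, was at 1.24 and 0.288 CPM against 80.8, 135 and 209 CPM (7.55 ± 0.83, adjusted p = 0.000238). The lowest stented high-flow library was 14.9-fold above the higher native one for LDHA and 65.3-fold for SLC16A3. HK2, the inducible hexokinase, rose from 6.71 and 4.60 CPM to 50.7, 57.7 and 51.5 CPM (3.24 ± 0.48, adjusted p = 0.00106), and the glycolytic enzyme ENO1 from 324 and 326 CPM to 2488, 4274 and 3510 CPM (3.40 ± 0.42, adjusted p = 0.000433). CA12, a carbonic anhydrase raised by hypoxia, went from 3.84 and 4.83 CPM to 125, 125 and 138 CPM (4.89 ± 0.34, adjusted p = 3.7e-05). NDUFA4L2, a target of hypoxia-inducible factor in mitochondria (5.06 ± 0.59, adjusted p = 0.000307), rose too. GAPDH, often used as a reference gene, went from 924 and 850 CPM to 2505, 4639 and 3680 CPM (2.02 ± 0.37, adjusted p = 0.00311). Dropping native replicate 1 or 2 gave 15 and 16 called higher.

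Respiratory chain genes of the 2 genomes differed in their calls. Of 34 nuclear genes of oxidative phosphorylation, 1 was called higher and none lower, with a median of 0.05. Of 13 genes encoded in the mitochondrial genome, 10 were called lower and none higher, with a median of -1.85. CYTB, of complex III, was at 10590 and 9466 CPM in native and at 688, 1209 and 573 CPM in stented high-flow (-3.61 ± 0.36, adjusted p = 0.000162), and ATP6, of the ATP synthase, at 13570 and 16090 CPM against 3181, 3676 and 2323 CPM (-2.28 ± 0.31, adjusted p = 0.000694). COX1, of complex IV, was at 30310 and 23950 CPM against 23000, 22270 and 14200 CPM and did not pass the test (-0.45 ± 0.41, adjusted p = 0.453). Without native replicate 1 or 2, 9 and 6 of the mitochondrial genes were called lower.

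Of 21 genes of fatty acid oxidation and lipid uptake, 6 were called lower and none higher (median -0.40). LPL, the lipase that releases fatty acids from lipoproteins, was at 1011 and 655 CPM in native and at 25.4, 29.7 and 4.45 CPM in stented high-flow (-5.39 ± 0.76, adjusted p = 0.000804), and CPT2, a carnitine transferase of mitochondria, at 70.5 and 72.8 CPM against 23.3, 23.9 and 34.2 CPM (-1.40 ± 0.26, adjusted p = 0.00324). LPL is also an adipocyte marker, and the summed adipocyte markers fell beside it from 3780 and 2480 CPM to 213, 275 and 203 CPM; their part in its fall was not tested. With native replicate 1 or 2 left out, 3 and 4 of these genes were called lower. Of 27 sterol and fatty acid synthesis genes, 2 were called higher and 4 lower (median 0.68), and none of these calls held without native replicate 1 or without native replicate 2. The shares of this list, 7.41% higher and 14.8% lower, were near the 10.4% and 13.9% over all genes tested.

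Stress response genes rose in part. Of 23 oxidative stress and NRF2 genes, 13 were called higher and 1 lower (median 1.12). SOD2, the mitochondrial superoxide dismutase, was at 65.1 and 59.3 CPM in native and at 621, 615 and 274 CPM in stented high-flow (3.02 ± 0.48, adjusted p = 0.00152), with replicate 3 the lowest of its group. GCLC, the rate-limiting enzyme of glutathione synthesis, went from 6.64 and 6.79 CPM to 32.4, 53.8 and 19.5 CPM (2.39 ± 0.44, adjusted p = 0.00322). The member called lower was the metallothionein MT3, at 2.21 and 1.32 CPM in native and with 1 count in the 3 stented high-flow libraries, a native to stented high-flow ratio of 92.5 with a 95% counting interval of 15.9 to 3720 (adjusted p = 0.00185). When native replicate 1 or 2 was left out, 6 and 5 of the list were called higher.

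Of 22 endoplasmic reticulum chaperone and unfolded protein response genes, 15 were called higher and none lower (median 1.19). CREB3L1, a transcription factor of secretory cells that promotes collagen genes, went from 56.5 and 74.1 CPM to 220, 351 and 680 CPM (2.67 ± 0.44, adjusted p = 0.00177). TRIB3, a pseudokinase (2.93 ± 0.55, adjusted p = 0.00361), and CHAC1, which degrades glutathione (3.46 ± 0.63, adjusted p = 0.00321), targets of the integrated stress response, rose as well, each with replicate 1 the lowest and replicate 3 the highest of the stented high-flow libraries. After dropping native replicate 1 or 2, 4 and 5 of the list were called higher. Of 16 cytosolic heat shock protein genes none was called higher and 2 lower (median -0.08), among them DNAJB5, a cochaperone (-2.69 ± 0.36, adjusted p = 0.000692). The 12.5% of them called lower was near the 13.9% over all genes tested.

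Among genes of protein synthesis and breakdown, a part of those of amino acid supply was called higher, and most ribosomal protein and proteasome genes were not called. Of 32 aminoacyl-tRNA synthetase and amino acid transporter genes 16 were called higher and none lower (median 1.24), but 2 without native replicate 1 and 2 without native replicate 2. SHMT2, the mitochondrial serine hydroxymethyltransferase, held its call and rose from 34.1 and 25.2 CPM to 202, 224 and 294 CPM (3.02 ± 0.31, adjusted p = 0.000167). WARS1, the tryptophanyl synthetase, was at 62.6, 132 and 384 CPM in stented high-flow against 42.5 and 40.5 CPM, and its log2 fold change of 2.21 ± 0.67 (adjusted p = 0.0343) was 1.23 without replicate 3 (adjusted p = 0.0823); it was not called without native replicate 1 or 2 either (adjusted p = 0.173 and 0.168). Of 42 cytosolic ribosomal protein genes 2 were called higher and none lower (median 0.26), or 6 higher without stented high-flow replicate 1, and of 32 proteasome genes 5 were called higher and 1 lower (median 0.40). None of the 5 proteasome rises was called without either native library. The proteasome member called lower was PSMB9, a subunit of the immunoproteasome (-1.69 ± 0.52, adjusted p = 0.0371), whose call was lost without any one of 4 libraries (adjusted p = 0.0794 to 0.158).

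Lysosomal and phagocytic genes had 10 of 22 called higher and none lower (median 0.95), with 2 and 5 called without native replicate 1 and 2. GPNMB, a lysosomal glycoprotein of lipid-laden macrophages and other cells, was at 4.88 and 5.64 CPM in native and at 174, 124 and 180 CPM in stented high-flow (4.92 ± 0.55, adjusted p = 0.000268). CTSH, a cathepsin, rose from 117 and 130 CPM to 652, 963 and 1348 CPM (3.00 ± 0.43, adjusted p = 0.000941). The macrophage markers did not move as a body: 3 of 19 were called higher (1 when native replicate 1 or 2 was left out) and 2 lower (median 0.34), and their sum was 637 and 622 CPM in native and 553, 465 and 919 CPM in stented high-flow. The shares of macrophage markers called, 15.8% higher and 10.5% lower, stood against 10.4% and 13.9% over all genes tested. The scavenger receptor MSR1 rose from 2.93 and 3.11 CPM to 16.3, 12.1 and 14.3 CPM (2.23 ± 0.34, adjusted p = 0.00115). LYVE1, a hyaluronan receptor of resident macrophages and lymphatics, fell from 27.1 and 24.1 CPM to 4.30, 5.16 and 4.83 CPM (-2.42 ± 0.38, adjusted p = 0.00148). CSF1R, the receptor macrophages depend on, fell by 2.35 ± 0.53 (adjusted p = 0.00911, and 0.0584 without native replicate 1).

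Markers of heart muscle, fat, lymphocytes and nerve had the lowest medians of the lists. Of 10 cardiomyocyte markers 8 were called lower (median -5.69), of 15 adipocyte markers 10 (median -4.09), of 12 lymphocyte markers 8 (median -3.28) and of 15 Schwann cell and nerve markers 11, with 2 higher (median -3.26). No cardiomyocyte, adipocyte or lymphocyte marker was called higher. The summed cardiomyocyte markers were 2350 CPM in native replicate 1 and 755 CPM in native replicate 2, and 76.1, 23.8 and 15.9 CPM in stented high-flow, where 3 to 5 of the 12 matched markers were at 0 in a library. TNNT2, cardiac troponin T, was at 404 and 1.32 CPM in native and at 0 counts in all 3 stented high-flow libraries, at least 3360-fold lower with a floor of 3 counts over the group. That value rests on native replicate 1, without which TNNT2 was not called (adjusted p = 0.0781) and 3 rather than 8 cardiomyocyte markers were. TNNC1, the troponin C of cardiac and slow muscle, was at 704 and 638 CPM in native and fell by 5.69 ± 0.88 on the log2 scale (adjusted p = 0.00136). It made up most of the summed 755 CPM in native replicate 2. The sums therefore understate how far the 2 native libraries differed in the other cardiomyocyte markers. The part of these markers' cells in other results was not tested gene by gene. With the cardiomyocyte, adipocyte, Schwann cell and sex-linked genes left out of the fit, 1594 genes were called higher and 2125 lower.

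Adipocyte markers summed to 3780 and 2480 CPM in native and to 213, 275 and 203 CPM in stented high-flow. ADIPOQ, adiponectin, was at 1075 and 615 CPM in native and at 0.143, 0.112 and 0.281 CPM in stented high-flow (-12.10 ± 2.37, adjusted p = 0.00474), and PLIN1, which coats lipid droplets, at 116 and 64.9 CPM against 0.287, 0.224 and 0.0468 CPM (-8.98 ± 1.85, adjusted p = 0.00605). Schwann cell and nerve markers summed to 1430 CPM in both native libraries and to 319, 377 and 354 CPM in stented high-flow. Among lymphocyte markers CD3E, a chain of the T cell receptor complex, was at 2.21 and 1.73 CPM in native and at 0 counts in stented high-flow, at least 34.6-fold lower, and GNLY, a granule protein of killer cells, at 8.86 and 9.15 CPM and 0 counts, at least 160-fold lower. Without native replicate 1 or 2, 6 and 7 adipocyte, 9 and 8 Schwann cell and 3 and 5 lymphocyte markers were called lower.

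Adventitial fibroblast markers split, with 9 of 21 called lower and 3 higher (median -1.32), while their sum, 5360 and 5850 CPM in native and 5310, 7860 and 5370 CPM in stented high-flow, overlapped. PI16, a marker of adventitial progenitor-like fibroblasts, was at 266 and 294 CPM in native and at 4.59, 2.97 and 3.70 CPM in stented high-flow (-6.22 ± 0.37, adjusted p = 2.52e-05). CD34, of the same cells and of endothelium, fell from 185 and 176 CPM to 24, 36.4 and 35.2 CPM (-2.50 ± 0.42, adjusted p = 0.00205). CLEC3B, tetranectin, fell from 273 and 357 CPM to 2.44, 13.6 and 4.64 CPM (-5.51 ± 0.62, adjusted p = 0.000270). LUM, the collagen-binding proteoglycan lumican, rose from 232 and 429 CPM to 2128, 2883 and 1061 CPM (2.61 ± 0.71, adjusted p = 0.0214), but not past the threshold without native replicate 1 or 2 or stented high-flow replicate 2 (adjusted p = 0.170, 0.0729 and 0.0593). Dropping native replicate 1 or 2 gave 7 and 8 fibroblast markers called lower and 1 called higher in each case. Smaller lists stood as follows: neutrophil and mast cell markers had 1 of 8 called higher and 2 lower (median 1.2), erythrocyte and platelet markers 1 of 5 higher and 2 lower (median 0.84), and lymphatic and mesothelial markers 2 of 8 higher and 2 lower (median -1.82). PDPN, podoplanin, which activated fibroblasts also make, rose from 11.8 and 18.1 CPM to 217, 356 and 248 CPM (4.19 ± 0.41, adjusted p = 0.000150). HBB, a haemoglobin chain, was at 35.3 and 47.4 CPM in native and at 0 counts in stented high-flow, at least 739-fold lower. Of the 2 sex-linked transcripts neither was called (median -0.22): EIF1AY was at 17.2 and 27.0 CPM in native and 26.4, 18.2 and 11 CPM in stented high-flow.

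**Figure D4:**
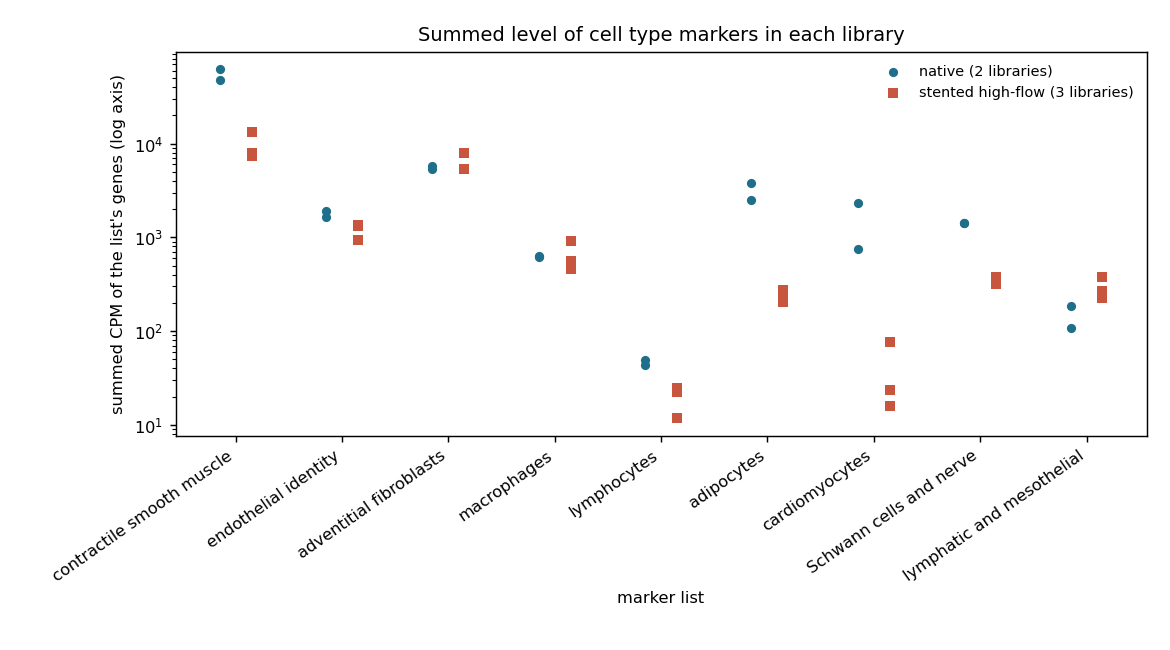
The summed level of 9 lists of cell type markers in each of the 5 libraries, in CPM on a log axis, with circles for the 2 native and squares for the 3 stented high-flow libraries. Cardiomyocyte, adipocyte and Schwann cell markers are lower in all 3 stented high-flow libraries, macrophage and adventitial fibroblast sums overlap, and the 2 native libraries differ in cardiomyocyte markers, 2350 against 755 CPM. Most of the 755 CPM is TNNC1.

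Outside the lists, the largest rises among genes of at least moderate level (a mean log2 CPM of 3) included CHI3L1, a chitinase-like glycoprotein, at 0.716 and 0.230 CPM in native and 276, 27.1 and 142 CPM in stented high-flow (8.30 ± 1.28, adjusted p = 0.00132). Replicate 2 was by far the lowest of its group and was still above both native libraries. PRSS35, a serine protease-like protein, was at 0.456 and 0.460 CPM against 124, 72.7 and 70.2 CPM (7.58 ± 0.79, adjusted p = 0.000167). SLC2A5, the fructose transporter, was at 1.17 and 0.173 CPM against 110, 140 and 55.5 CPM (7.26 ± 1.09, adjusted p = 0.00116). The largest falls included NTRK2, the receptor of brain-derived neurotrophic factor, from 192 and 215 CPM to 2.51, 4.66 and 3.84 CPM (-5.78 ± 0.40, adjusted p = 3.7e-05), and PGM5, an adhesion protein of muscle, from 164 and 194 CPM to 2.94, 2.47 and 1.64 CPM (-6.26 ± 0.43, adjusted p = 3.7e-05). RCAN2, a calcineurin inhibitor (-5.95 ± 0.59, adjusted p = 0.000153), and MTUS2, a microtubule-associated protein (-6.12 ± 0.37, adjusted p = 2.52e-05), fell by similar amounts. MYL4 (-6.39 ± 0.61, adjusted p = 0.000137), the atrial myosin light chain, and HRC (-5.99 ± 0.69, adjusted p = 0.000295), a calcium-binding protein of the sarcoplasmic reticulum, are genes of heart muscle too. MYL4 was at 473 CPM in native replicate 1 and 120 CPM in replicate 2, the same order as the cardiomyocyte markers.

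Stented high-flow vessels were also set directly against stented static vessels, which had the stent but no flow. Of 15348 genes, 181 (1.18%) were called higher and 257 (1.67%) lower. At an unadjusted p under 0.05 in edgeR there were 2937 genes (19.1%). With 3 libraries against 2, the genes not called are not shown to be alike. The Y-linked EIF1AY and KDM5D were at 0 CPM in both static libraries, and both were called higher in stented high-flow. By these transcripts the 2 stented groups differ in the sex of the animals, which the labels do not give. Flow and sex cannot be told apart in this comparison. Both static libraries also carry a d suffix of 3. Without stented static replicate 1 the calls came to 36 higher and 59 lower, without stented static replicate 2 to 243 and 541, and without stented high-flow replicate 2 to 87 and 88. PRSS35 was at 0.474 and 0.608 CPM in stented static against the 70.2 to 124 CPM given above, a log2 fold change over stented static of 7.36 ± 0.77 (adjusted p = 0.00243). C1QTNF3, a secreted adipokine-like protein, was at 0.474 and 1.58 CPM in stented static and at 79.8, 30.7 and 141 CPM in stented high-flow (6.40 ± 0.82, adjusted p = 0.00529). CORIN, the protease that activates natriuretic peptides, was at 1.54 and 2.80 CPM against 76.3, 41.9 and 83.2 CPM (4.97 ± 0.53, adjusted p = 0.00249). All 3 genes were called whichever of the 5 libraries was left out.

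Some of the genes that rose against native also stood above stented static. VDR was at 15.3 and 22.4 CPM in stented static, below the 74.8 to 142 CPM of stented high-flow (2.52 ± 0.34, adjusted p = 0.00611, and 0.0540 without stented static replicate 1). TIMP1 was at 735 and 438 CPM in stented static (2.21 ± 0.38, adjusted p = 0.0159). FN1 was at 1797 and 6107 CPM in stented static, which did not overlap with stented high-flow (2.79 ± 0.65, adjusted p = 0.0468); the call was lost without stented static replicate 1 (adjusted p = 0.259) and without any 1 of the stented high-flow libraries (adjusted p = 0.0501 to 0.118). For MYH11 the groups overlapped, with 65.5 and 685 CPM in stented static (0.58 ± 0.99, adjusted p = 0.808), and for ELN too (-0.25 ± 0.44, adjusted p = 0.815). LDHA, at 751 and 613 CPM in stented static, did not overlap with stented high-flow but did not pass the test (0.91 ± 0.36, adjusted p = 0.192).

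Among the genes lower than in stented static, NTRK2 was at 63.9 and 143 CPM there, and at under 5 CPM in every stented high-flow library (-4.81 ± 0.39, adjusted p = 0.000518). FGL2, a fibrinogen-like protein of immune regulation, was at 290 and 736 CPM against 51.2, 64.7 and 60.7 CPM (-3.12 ± 0.43, adjusted p = 0.00704), and the Notch target HES4 at 45.5 and 38.3 CPM against 11.9, 8.58 and 5.06 CPM (-2.30 ± 0.34, adjusted p = 0.00937). These 3 genes kept the call whichever of the 5 libraries was left out. MT1X, a metallothionein that binds zinc and copper, was at 2247 and 290 CPM in stented static and at 38.1, 13.6 and 37.0 CPM in stented high-flow (-5.42 ± 0.78, adjusted p = 0.00819); leaving out stented static replicate 1 moved it to -3.30 (adjusted p = 0.0315). LPL and FABP4, a fatty acid carrier, had log2 fold changes of -3.99 ± 0.72 and -3.90 ± 0.88 (adjusted p = 0.0187 and 0.0428), and neither was called without stented static replicate 1 (-2.62 and -1.39, adjusted p = 0.125 and 0.484). That library carried 3810 CPM of summed adipocyte markers, against 367 CPM in stented static replicate 2 and 203 to 275 CPM in stented high-flow, and the part of fat in these 2 values was not tested.

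**Figure D5:**
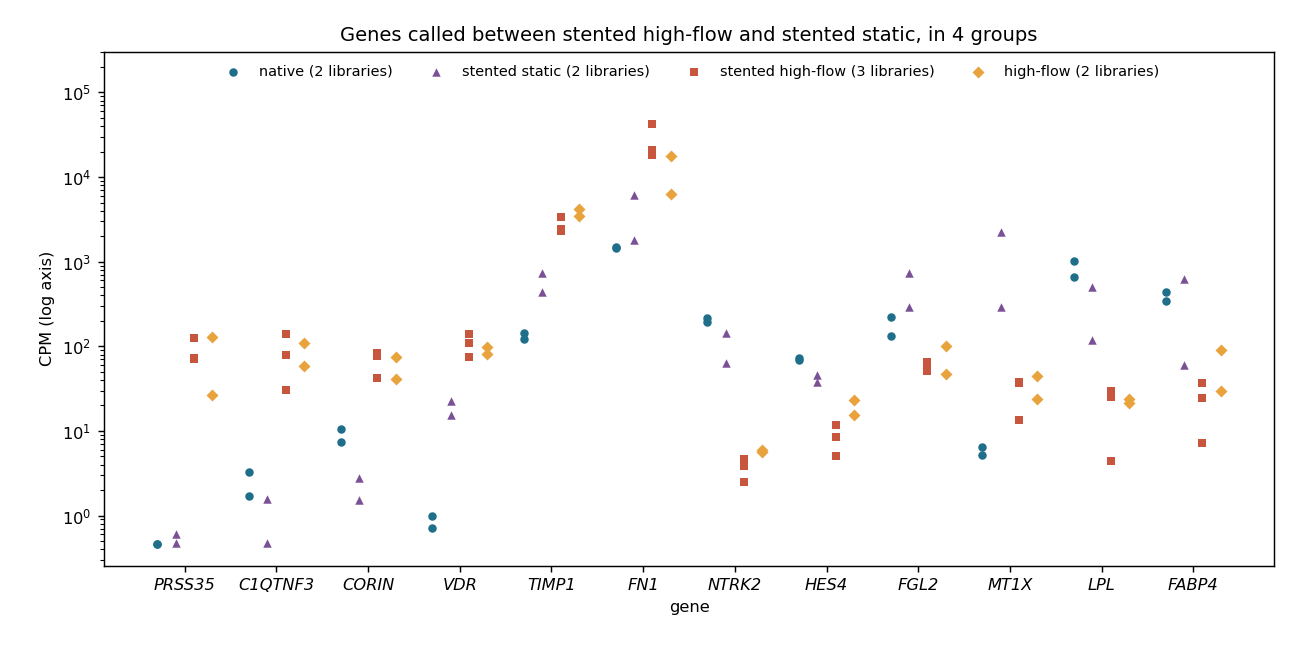
The level of 12 genes in the native, stented static, stented high-flow and high-flow libraries, in CPM on a log axis, with 1 point per library. All 12 were called between stented high-flow and stented static; stented static replicate 1 stands above replicate 2 for MT1X, LPL and FABP4.

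Against high-flow vessels, which had the same label for flow and no stent, no gene was called in either direction by edgeR (0% of 15348 higher and 0% lower). At an unadjusted p under 0.05 there were 467 genes (3.04%), and the smallest adjusted p was 1. With 3 libraries against 2 this does not show that the groups were alike. The log2 fold change of stented high-flow over high-flow was 0.01 for MYH11 with a 95% confidence interval of -2.13 to 2.15, 1.17 for FN1 (-0.14 to 2.49), 0.42 for LDHA (-0.35 to 1.19), 0.27 for VDR (-0.40 to 0.93) and -0.51 for TIMP1 (-1.26 to 0.24). The interval was widest for MYH11, whose high-flow libraries stood at 82.0 and 1030 CPM. DESeq2, the tool of the authors, called 6 genes on the same counts, 2 higher and 4 lower, and 2 of the 6 have no symbol. The higher ones were AREG, at 0.916 and 2.72 CPM in high-flow against 4.88, 18.7 and 20.1 CPM (adjusted p = 0.0401 in DESeq2), and ADGRG6, an adhesion receptor, at 4.68 and 2.57 CPM against 12.8, 21.4 and 10.9 CPM (0.0302). The lower ones with a symbol were IFI6, an interferon-induced gene, at 106 and 66.7 CPM against 35.4, 21.4 and 18.1 CPM (0.0115), and RGS5, a pericyte and smooth muscle regulator of G protein signalling, at 136 and 221 CPM against 51.7, 14.4 and 8.81 CPM (0.0302). In edgeR, without stented high-flow replicate 1, FOS alone was called, lower than in high-flow (-3.56, adjusted p = 0.0258).

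The 3 stented high-flow libraries also differed among themselves. Among 9429 genes of sufficient level, 5.84% stood more than 2-fold away from both other libraries in replicate 1, 0.891% in replicate 2 and 6.50% in replicate 3. Replicate 3, the library with the d suffix, was above the others for ALDH1A3, an enzyme of retinoic acid synthesis, with 51.9, 40.7 and 316 CPM in replicates 1 to 3, and for the iron-binding protein LCN2, with 337, 266 and 1350 CPM. It was also above them for SERPINE2, a thrombin and protease inhibitor, with 64.9, 127 and 497 CPM, and for MFAP5, a microfibril protein, with 4.30, 6.45 and 41.3 CPM. It was below them for DMD, dystrophin, with 41.1, 19.2 and 4.50 CPM, for OGN, the proteoglycan osteoglycin, with 168, 164 and 39.4 CPM, and for OMD, its relative, with 250, 338 and 63.8 CPM. Such gaps enter the comparison with native. LCN2 was called higher than its native levels of 27.2 and 29.7 CPM (4.51 ± 0.81, adjusted p = 0.00307). ALDH1A3 had a log2 fold change of 2.78 ± 0.81 (adjusted p = 0.0296) and 1.22 without replicate 3 (adjusted p = 0.0397), and SERPINE2 2.62 ± 0.70 (adjusted p = 0.0200) and 1.36 without it (adjusted p = 0.0170). Neither ALDH1A3 nor SERPINE2 was called without native replicate 1 (adjusted p = 0.159 and 0.121) or 2 (0.159 and 0.132). These genes were chosen for the gap in replicate 3, so the gap itself was not tested.

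For orientation, RefSeq places the genes that carry the main contrasts in the Sscrofa11.1 assembly as follows. MYH11 spans chromosome 3 from 7002667 to 7143093 and ELN the same chromosome from 11214194 to 11245891. FN1 lies on chromosome 15 from 117658158 to 117737145, and MMP9 on chromosome 17 from 48179690 to 48186782. TIMP1 lies on chromosome X from 42103251 to 42106289. VDR lies on chromosome 5 from 78205807 to 78266505, and RUNX2 on chromosome 7 from 40106581 to 40353304. LDHA and EGR1 are both on chromosome 2, from 40814163 to 40827284 and from 140440829 to 140445302. Counts are per gene, so exons and untranslated regions cannot be separated.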

How the data were processed

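RNA from flash-frozen coronary arteries was purified on columns with DNase treatment and sequenced as paired ends, per the labels' protocols. The deposited values used are gene counts per library, made by the authors and read from 2 tables joined by gene, whose native columns hold the same values. Trimmomatic, FastQC, DESeq2 and the Sscrofa11.1 build are named in the submitters' processing notes. The sources used here do not give the aligner, the counter, the annotation release or the use of strand, so reads of overlapping, antisense or near-identical genes may be misassigned. The authors' deposited table of log2 fold changes served as a check: of its 1117 genes 1085 could be matched and tested, and 1082 of those were called here in the same direction, while 2655 genes called here are not in it. The smallest absolute log2 fold change in the authors' deposited table is 1.88, and 1015 of the 2655 lie past it.

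The test was edgeR's quasi-likelihood test (edgeR 4.0.16, R 4.3.3) after filterByExpr and TMM scaling, fitted jointly to all 11 libraries in 5 groups, and p-values were adjusted by Benjamini and Hochberg's method and called under 0.05. The joint fit shares 1 estimate of the spread, with 6 residual and 5.02 prior degrees of freedom, because groups hold 2 or 3 libraries. CPM use TMM-scaled totals and log2 CPM a prior count of 2. The SE is the absolute log2 fold change divided by the square root of the F statistic, not an estimate printed by the model. The 95% confidence intervals against high-flow use this SE and a t quantile. In a group without counts the floor was 3 counts over the group, and ratios of 1 to 3 counts carry exact 95% intervals. A list is described by its counts of calls and its median, without a test; with genes at 0 set to their bound, no list's median changed. The 46 lists hold 947 genes tested. The members and lists were chosen with earlier results of these data known. Named genes are the 12 largest changes each way at a mean log2 CPM of at least 3, the 4 largest calls and the most abundant gene of each list, a fixed set of vascular genes, the 6 largest changes each way against stented static, the most abundant genes, and the 8 with replicate 3 farthest above and 8 farthest below; this rule gives 240 genes, of which 81 are not printed. The 39 printed genes outside it were chosen after their values were seen. On simulated data with 200 of 15348 genes changed, the test recovered 4.57% of 2-fold, 46.5% of 4-fold and 75.8% of 8-fold changes. A median of 5 unchanged genes per draw was called. The data held far more calls, 3737, and adjusted p-values depend on how many genes change, so these shares need not hold for the data. A gene that was not called here may still have changed. Alternatives were RLE scaling, DESeq2 1.42.0, limma-voom (limma 3.58.1), other count filters, a fit of the 2 groups alone, no mitochondrial genes, a replicate block and leaving out each library, and, chosen after seeing the data, leaving out sex-linked, cardiomyocyte, adipocyte and Schwann cell genes.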

Additional observations from a re-analysis of the deposited data

Results flagged for a closer look

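The direct test between the 2 stented groups (edgeR's quasi-likelihood test, adjusted p under 0.05) called 181 genes higher and 257 lower in stented high-flow. In these genes the effect of stented high-flow against native differed from that of stented static against native. The 12 given here, 6 each way, were picked for the size of their change and are not the full set. As log2 fold changes of stented high-flow over stented static, with 3 against 2 libraries, PRSS35 was at 7.36, C1QTNF3 at 6.40, IL11 at 5.02, CORIN at 4.97, COL11A1 at 4.96 and SFRP2 at 4.92. On the lower side MT1X was at -5.42, NTRK2 at -4.81, LPL at -3.99, FABP4 at -3.90, CYP27A1 at -3.48 and FGL2 at -3.12. PRSS35, C1QTNF3, CORIN, MT1X, NTRK2 and FGL2 were called whichever library was left out. Without stented static replicate 1 the adjusted p was 0.146 for IL11, 0.186 for COL11A1, 0.0803 for SFRP2, 0.125 for LPL, 0.484 for FABP4 and 0.0664 for CYP27A1, and the log2 fold changes of MT1X, LPL, FABP4 and CYP27A1 became -3.30, -2.62, -1.39 and -2.24. IL11 and COL11A1 also lost the call without stented high-flow replicate 2 (adjusted p = 0.0608 and 0.0706), and IL11 without stented static replicate 2 or stented high-flow replicate 3 (0.117 and 0.0518). FABP4 lost it without any 1 of the stented high-flow libraries (0.0716 to 0.0819). By their Y-linked transcripts the groups also differ in the sex of the animals, which cannot be told apart from flow here.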

How the results depend on the processing

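Against native, counts of calls stayed within 1.5 times of the 1599 higher and 2138 lower under RLE scaling, DESeq2, limma-voom, both other count filters, a fit of the 2 groups alone and the fit without mitochondrial genes. They moved further at a threshold of 0.01 (567 higher and 1117 lower) and when 1 library was left out (426 to 1848 higher and 1116 to 2224 lower). No gene named in the text and called against native changed direction under these alternatives. Among named genes that were not called, COL1A1, SPARC, IL6, EIF1AY and KDM5D changed sign when 1 library was left out, and COL1A1, EIF1AY and KDM5D also with the replicate block, to values between -0.10 and 0.34. The most calls of named genes were lost without native replicate 1 (21) and 2 (24), and 10 with the replicate block. Against stented static the 181 higher and 257 lower calls became 592 and 776 in DESeq2, 405 and 598 without a count filter, 20 and 12 with the 2 groups alone, 30 and 30 at a threshold of 0.01, and 36 to 243 and 59 to 541 with 1 library left out. Against high-flow, DESeq2 called 2 higher and 4 lower, and leaving out 1 library gave 0 higher and 0 to 1 lower. An arm left with 1 library is assumed to vary like the other groups. The causes were not tested.

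Replicate numbers in the titles were tried as a replicate block: 1014 genes were called higher and 1475 lower than in native, 104 and 81 against stented static, and 0 and 0 against high-flow. Deviations from the group means correlated at -0.041 between the libraries numbered 1 and at 0.144 between those numbered 2 in native and stented high-flow. Between the 2 that share experiment number 25 the value was 0.041. The deviations of the 2 native libraries are mirror images, so this value is the first one with its sign turned. Such correlations cannot decide whether samples are paired. The labels do not say whether the numbers pair the samples, and the main fit used no pairing.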
